A study of Mus musculus with 105 samples.

Results

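Cytosolic ribosomes are built from ribosomal RNA and a set of ribosomal proteins, each with its own nuclear gene, which are named for the large (Rpl) or the small (Rps) subunit. Cells hold these proteins in near equal numbers, and most of their mRNAs begin with a run of pyrimidines, the terminal oligopyrimidine tract, through which growth signalling by mTOR adjusts their translation and stability. A few members have an expressed copy elsewhere in the genome, several of which are best known from the testis. Embryonic stem cells divide rapidly and have a high demand for ribosomes.

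The genes described here were chosen by name among the rows of the TX1072 bulk RNA-seq table: every Rpl or Rps symbol of the cytosolic ribosome with at least 100 counts over all TX1072 libraries, without names marked as pseudogenes, the Rps6k kinases and Rps4x. The rule gave 87 of 52108 genes. Of these, 53 belonged to the large and 34 to the small subunit, and 3 (Rpl10, Rpl36a and Rpl39) were X-linked. By name, 11 members were copies of another ribosomal protein gene (Rpl3l, Rpl6l, Rpl7l1, Rpl10l, Rpl22l1, Rpl32l, Rpl39l, Rps3a2, Rps3a3, Rps4l and Rps27l). The rule leaves out the X-linked namesake of Rps4l. The other 76 are called standard members here. The annotation marked 5 of the 87 as pseudogenes, among them Rps4l.

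The cells were the female mouse embryonic stem cell (mESC) line TX1072, an F1 hybrid of C57BL6/J (B6) and Cast/EiJ (Cast), here as the clone A3. On its B6 X chromosome, Xist stands behind a promoter that responds to doxycycline, and the activator rtTA was inserted at Rosa26. TXdXicB6 and TXdXicCast are single clones derived from it, which lack the X inactivation center on the B6 or on the Cast X chromosome and can therefore inactivate only the other X. All lines were kept in serum with LIF and 2i, that is inhibitors of Gsk3 (CT-99021) and MEK (PD0325901), and were differentiated by withdrawal of LIF and 2i on fibronectin. Bulk RNA of days 0 to 4 was sequenced from 3 replicates per line and day (45 libraries), each replicate number being a separate differentiation, and single TX1072 cells were captured from 1 culture per day. The bulk libraries held 19827011 to 39628784 counts in TX1072 and 16906263 to 57920260 in the deletion lines.

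Several libraries stood apart before any comparison. The 3 TXdXicCast libraries of day 0 came from degraded RNA that was fragmented more mildly than the rest, so that line was also compared between days 4 and 1, which leaves those libraries out. Mitochondrially encoded genes took 7.90% of counts in TX1072 day 0 replicate 3 and 8.57% in TX1072 day 3 replicate 2, against 1.27 to 4.11% in the other TX1072 libraries, and only 0.135 to 0.320% in TXdXicCast at day 0. TX1072 and the deletion lines were made with different kits and sequencers, so the 2 tables were normalised and tested separately. The p-values measure the spread between the 3 differentiations of a line. In bulk RNA, fewer cells of a type and less RNA per cell cannot be told apart.

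The start of the transcript is the sequence that marks this gene family, and it is shown first, for 6 members with a clear tract and for the copies and X-linked members to which the results return. Each line gives 10 bases before and 20 bases from an annotated RefSeq transcription start (GRCm38.p6), 5′ to 3′ on the strand of the gene, with the longest run of C and T in capitals. A RefSeq window was found for 63 of the 87 members. Rpl35, Rpl15 and Rpl28 (large subunit) and Rps10, Rps6 and Rps27 (small subunit) were picked for their tract, the next 6 lines are copies, and the last 3 are the X-linked members.
Rpl35, chr2:39005112-39005141, minus strand: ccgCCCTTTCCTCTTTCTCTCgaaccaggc
Rpl15, chr14:18270967-18270996, minus strand: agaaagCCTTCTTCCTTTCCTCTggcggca
Rpl28, chr7:4792955-4792984, plus strand: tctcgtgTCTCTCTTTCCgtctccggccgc
Rps10, chr17:27635225-27635254, minus strand: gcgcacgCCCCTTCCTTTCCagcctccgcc
Rps6, chr4:86857348-86857377, minus strand: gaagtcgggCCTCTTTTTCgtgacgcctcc
Rps27, chr3:90213629-90213658, minus strand: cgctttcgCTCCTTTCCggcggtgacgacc
Rpl22l1, chr3:28805498-28805527, plus strand: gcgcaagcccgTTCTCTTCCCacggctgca
Rpl39l, chr16:10170218-10170247, plus strand: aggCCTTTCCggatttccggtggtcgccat
Rps27l, chr9:66946076-66946105, plus strand: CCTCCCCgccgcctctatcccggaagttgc
Rpl10l, chr12:66284382-66284411, minus strand: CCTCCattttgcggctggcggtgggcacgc
Rpl7l1, chr17:46782637-46782666, minus strand: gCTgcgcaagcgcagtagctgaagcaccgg
Rpl3l, chr17:24727816-24727845, plus strand: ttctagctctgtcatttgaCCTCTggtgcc
Rpl10, chrX:74270806-74270835, plus strand: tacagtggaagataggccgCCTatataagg
Rpl36a, chrX:134585644-134585673, plus strand: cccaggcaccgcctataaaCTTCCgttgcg
Rpl39, chrX:37085203-37085232, minus strand: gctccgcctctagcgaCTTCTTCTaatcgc
The run had a median length of 7 bases in the members and of 5 bases over all 27025 genes with a window. A run of at least 7 bases was present in 54% of the members (34 of 63) and in 20.5% of all genes, and among the copies in 4 of 7. For genes with several annotated starts (75 starts for the 63 members), the longest run was taken. Whether these starts are used in these cells was not tested. A window without a long run therefore does not show that the transcript lacks the tract. Searched on the strand of the gene within these 30 bases, CTTTCC was found in 15.9% of members and 1.52% of all genes, and CTCTTT in 11.1% and 1.2%. Both words overlap with the pyrimidine run itself. CCGGAAGT, the letters bound by ETS-type factors, occurred on either strand of the 300-base window around the start in 19% of members and in 4.31% of all genes. These matches are a description of the letters, not of binding.

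The first question was which part of the transcriptome the family took up during differentiation. In TX1072 the members held 6.08, 6.35 and 6.30% of counts in the 3 day 0 libraries. The day 1 libraries gave 4.98, 5.78 and 4.62%, and those of day 4 gave 5.55, 5.55 and 5.03%. All day 1 and day 4 libraries thus lay below all day 0 libraries, while days 1 and 4 overlapped. For days 0 to 4 in turn, the mean share was 6.24% ± 0.143 (SD, n = 3), 5.12% ± 0.593, 5.74% ± 0.718, 6.01% ± 0.447 and 5.38% ± 0.303. The difference to day 0 gave p = 0.1 at day 1 and at day 4 in the exact two-sided permutation test, which is the smallest value that 3 against 3 libraries can give (0.18 after adjustment over 9 comparisons).

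In TXdXicB6 the share of days 1 and 4 overlapped with that of day 0. It was 6.73, 5.89 and 5.63% in the day 0 libraries, 5.91, 5.44 and 5.71% in those of day 1 and 6.64, 5.25 and 7.03% in those of day 4, with replicate 2 of day 4 the lowest of these 9 libraries (exact permutation p = 0.9 for day 4 against day 0). The day 3 libraries, with 7.00, 5.98 and 6.35%, all lay above those of day 1. In TXdXicCast it was 6.95, 6.78 and 7.14% in the degraded day 0 libraries, 5.49, 5.79 and 5.91% one day later and 6.50, 6.09 and 6.10% on the last day. Here day 0 lay above both other days and day 4 lay above day 1 (6.23% ± 0.233 against 5.73% ± 0.216, exact permutation p = 0.1 in each case, the smallest possible).

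The single cells, which shared their culture with TX1072 bulk replicate 1 and are no further differentiation, gave a similar lowest point at day 1. Of the 87 members, 86 were rows of the single-cell table, in which every 3′ end is counted as distinct molecular identifiers (UMIs). Summed over the retained cells, they took 4.77, 3.77, 4.67, 4.96 and 4.56% of UMIs on days 0 to 4, in 277, 325, 341, 257 and 272 cells. The exact 95% binomial intervals, which cover counting error only, were narrow (4.96 to 4.97% for day 3). Cells of 1 day were captured in 10 columns of the chip, and each column of day 1 (3.68 to 3.93%) lay below each column of the other days (4.13 to 5.56%). Day 1 was sequenced in 2 runs, so day and run cannot be told apart there, and with 1 culture per day there is no test. A UMI of 5 bases has at most 1024 different sequences, so counts of abundant genes in a cell are compressed. The highest count of a member in a cell was 816, and 9.34% of the values of members in cells of day 0 and 12.3% of those of day 4 lay over 256. On day 1, 616 values of 10 genes lay above 1024, up to 2012, which 1 run cannot give. The counts of the 2 runs had thus been added, and a molecule read in both may have been counted in each. Corrected for UMI collisions (with the limit doubled for day 1), a choice made after seeing the data, the shares were 5.20, 3.84, 4.99, 5.32 and 5.02%, with day 1 still the lowest. The median cell held 138565, 124651 and 171158 UMIs on days 0, 1 and 4. Relative to the ERCC spike-in RNA added to each site, there were 15.9, 26.4, 24.7, 18.9 and 17.3 member UMIs per ERCC UMI on days 0 to 4. All UMIs stood at 332, 700, 528, 380 and 379 per ERCC UMI. On this scale day 1 was the highest day for the members and for all UMIs, and day 2 was next. The spike-in count itself was lowest on day 1, with 405, 169, 224, 320 and 424.5 ERCC UMIs in the median cell on days 0 to 4. With 1 culture per day, spike-in recovery and day cannot be told apart. Whether the member RNA per cell changed was not tested. With the correction for collisions the members were at 17.9, 27.8, 27.6, 21.2 and 19.8 per ERCC UMI, so that days 1 and 2 were nearly equal.

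**Figure D1:**
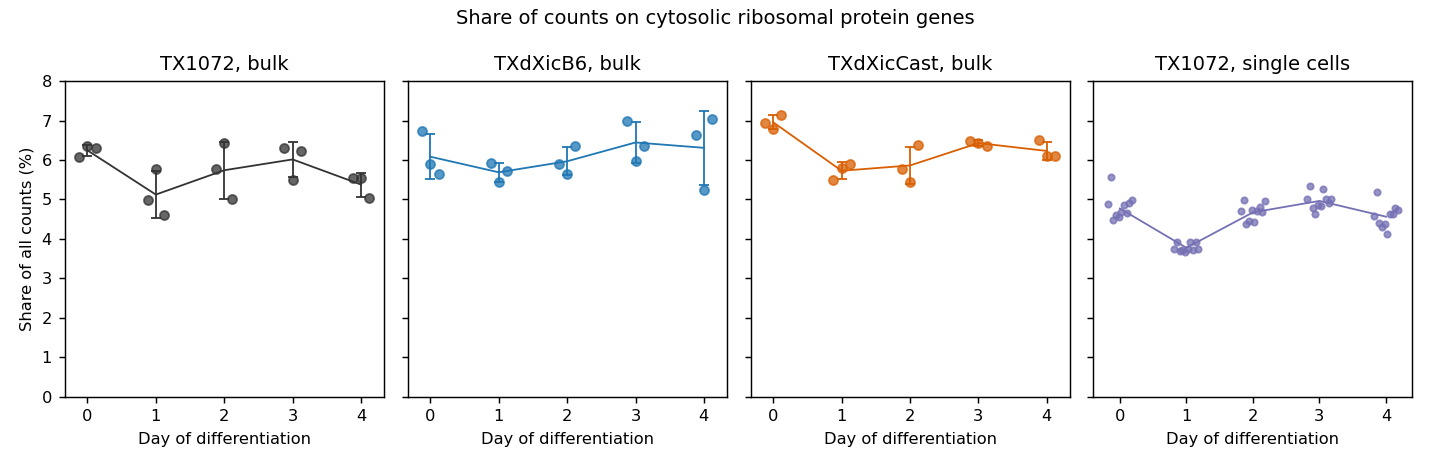
Share of all counts on the cytosolic ribosomal protein genes (%) by day of differentiation (0 to 4). In the bulk panels each point is a library (87 genes, 3 per day), the line joins the means and the bars are SD; in the single-cell panel (86 genes) each point is 1 of the 10 capture columns of a day and the line joins the values over all retained cells. TX1072 falls from 6.24% at day 0 to 5.12% at day 1, and the single cells from 4.77 to 3.77%.

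Gene by gene, the standard members moved together in TX1072. At day 1 all 76 had a negative log2 fold change to day 0, between -0.88 and -0.10 (median -0.37, SD over genes 0.17), and at day 4 again all 76 were negative (median -0.37, SD 0.19). Days 2 and 3 lay closer to day 0, with medians of -0.22 and -0.16 and with 66 and 58 of 76 genes negative. Both subunits had negative medians. At day 1 the median log2 fold change was -0.31 for the 30 standard members of the small subunit, of which 13 were called lower, and -0.41 for the 46 of the large subunit, of which 30 were called lower. At day 4 the medians were -0.37 and -0.38, with 15 and 29 called lower. On days 2 and 3 they were -0.18 and -0.10 in the small and -0.26 and -0.18 in the large subunit. The difference between the subunits was not tested.

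These calls come from edgeR's quasi-likelihood test with a Benjamini-Hochberg adjusted p of at most 0.05 over all 18871 genes tested, and they have to be read against how many genes changed in all. At day 1, 45 of 87 members were called, where 47% of all genes were called. None of the members was higher and 45 were lower, against 23.5% of all genes higher and 23.4% lower. For day 2, 19 members were called lower and none higher (56% of all genes called, 28.8% higher and 27.2% lower). For day 3, 10 were lower and none higher (56.1% called, 28.1% higher and 27.9% lower). For day 4, 50 were lower and none higher (59.6% called, 30.2% higher and 29.4% lower). The share of members called, 51.7, 21.8, 11.5 and 57.5% for days 1 to 4, was thus close to that of all genes for days 1 and 4 and below it for days 2 and 3. The median log2 fold change of all 87 members was -0.35 at day 1 and -0.39 at day 4, against -0.01 and -0.03 over all genes tested.

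The number of members called depended on which libraries and which scale were used, and leaving out a replicate also leaves fewer libraries. Without replicate 3, 8, 1, 5 and 31 members were called lower on days 1 to 4, without replicate 1 27 were called on day 1, and without replicate 2 31 on day 2. Without the 2 libraries with over 7% mitochondrial counts, 25, 8, 5 and 43 members were called on days 1 to 4. Scaled by library size alone, 12 members were called lower and 1 higher on day 2, 6 lower on day 3 and 26 lower on day 4. The median of the members at day 4 was then -0.25 and that of all genes 0.11 (-0.39 and -0.03 in the main fit).

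Between days 1 and 4, the ends of the course after withdrawal, few members were called in the bulk libraries. The days between lay closer to day 0 in TX1072, and the share of the family was higher at day 4 than at day 1 in TXdXicCast and in single cells. In TX1072, 1 member was called higher and 5 lower between these days, in a comparison in which 58.9% of all genes were called (30.7% higher and 28.1% lower). The standard members had a median log2 fold change of 0.01 (SD over genes 0.15), and none of them changed by more than 1.30-fold. Rps2, which lies near the mRNA entry of the small subunit, was the single rise, from 955, 1039 and 1052 CPM (counts scaled to a common library total) at day 1 to 1174, 1344 and 1294 CPM at day 4 (log2 fold change 0.32, SE 0.09, adjusted p = 0.006214). Since Rps2 read 1278, 1270 and 1379 CPM at day 0, day 4 overlapped with day 0, with replicate 1 below all day 0 libraries. With the replicate number as a block, 3 members were called higher and 7 lower between days 1 and 4, and scaled by library size alone 4 and 5. Rps2, like Rps14, Rps6 and Rps23 further on, was singled out after its values were seen.

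In the deletion lines, too, few members were called between days 1 and 4. In TXdXicB6 no member was called higher and 4 lower, where 56.6% of the 19885 genes tested were called (27.9% higher and 28.7% lower), and in TXdXicCast none was higher and 5 lower, where 59.4% were called (29.3% and 30.1%). The standard members had medians of 0.04 (SD 0.13) and 0.00 (SD 0.12), and the largest change of any of them was 1.28-fold in TXdXicB6 and 1.22-fold in TXdXicCast. None of the 76 was called in either line. With the replicate number as a block, 1 member was called higher and 7 lower in TXdXicB6. Scaled by library size alone, 9 were called higher and 4 lower in TXdXicB6, and 8 and 5 in TXdXicCast, where the median of all genes was 0.12 and 0.11. With the size factors of DESeq2, 1 was higher and 4 lower in TXdXicB6.

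The deletion lines were also compared with day 0, and whether they differed from TX1072 was not tested. In TXdXicB6, 4 of 86 members were called lower and none higher on day 1 (45.7% of all genes called, 23.9% higher and 21.8% lower) and 8 and none on day 2 (56.1%, 28.9% and 27.2%). On day 3, 4 were lower and 2 higher (57.8%, 29.8% higher and 28% lower), and on day 4 8 were lower and none higher (59.5%, 30% and 29.5%). The median log2 fold changes of the members were -0.15, -0.05, 0.01 and -0.09. These counts changed when a replicate number (and with it a library of every day) or a single library was left out, which also leaves fewer libraries. Without replicate 3, 11 members were called on day 1 and 19 on day 4. Without replicate 2, 1, 4 and 5 were called on days 1, 2 and 4, and without replicate 1, 0, 1 and 4. Scaled by library size alone, 2, 6 and 3 members were higher and 8, 3 and 5 lower on days 2 to 4, and the median for day 4 changed sign to 0.04, where that of all genes was 0.13. With the size factors of DESeq2, 2 were higher and 8 lower on day 4. With the replicate number as a block, 19, 18, 14 and 22 members were called on days 1 to 4, of which 18, 16, 9 and 19 were lower. Leaving out only day 0 replicate 1, the library of this line with the fewest mitochondrial counts (0.69%), gave 0, 1, 5 and 6 called members.

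In TXdXicCast, 8 members were called higher and 43 lower on day 1 (58.9% of all genes called, 30.6% higher and 28.3% lower) and 6 and 46 on day 2 (66.4%, 34.5% and 31.9%). For day 3 it was 10 and 41 (68.6%, 35.8% and 32.8%), and for day 4 7 and 47 (69.8%, 36.2% and 33.6%). Scaled by library size alone, 11, 14 and 13 were higher and 33, 28 and 33 lower on days 2 to 4, where the median of all genes lay between 0.24 and 0.30. The standard members did not move together in these comparisons: their log2 fold changes spread from -1.31 to 0.90 at day 1 (SD over genes 0.43), where the SD was 0.17 in TX1072 and 0.15 in TXdXicB6. At day 4 against day 1 the SD in this line was 0.12. Every one of the wide comparisons uses the degraded day 0 libraries, and RNA quality and day cannot be told apart in them.

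**Figure D2:**
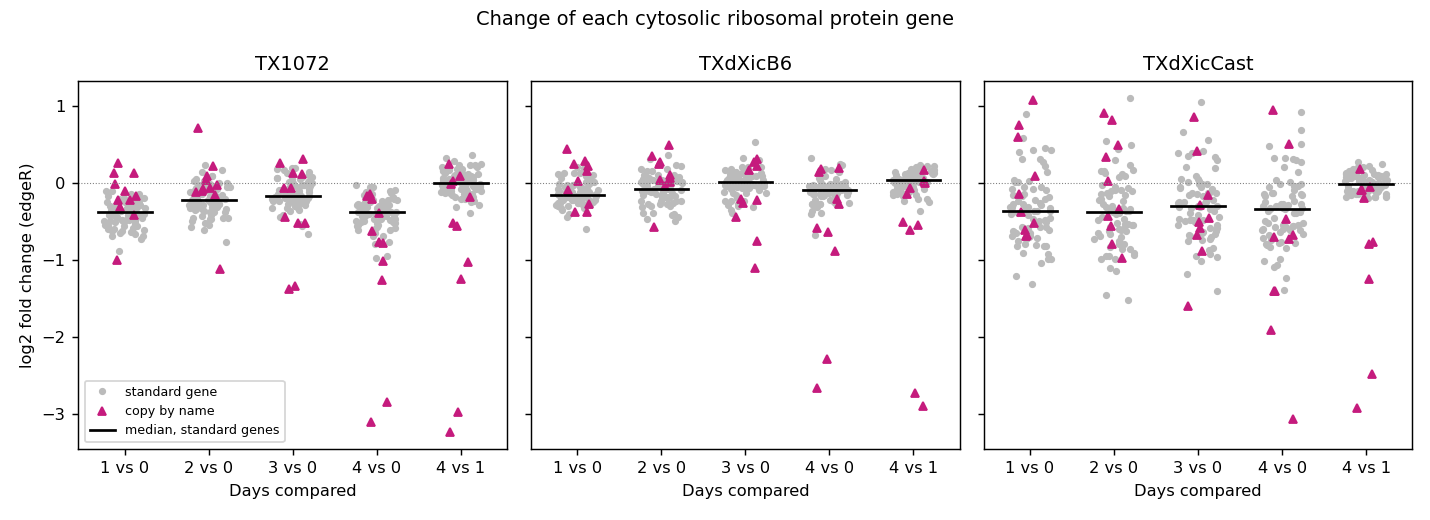
log2 fold change of each cytosolic ribosomal protein gene in the 3 lines for the comparisons of days named on the x axis. Grey points are standard members, triangles are copies by name and bars are the medians of the standard members. The standard members of TX1072 all lie below 0 at days 1 and 4 against day 0 and around 0 at day 4 against day 1, while 2 copies, Rpl10l and Rpl39l, lie between -3.23 and -2.48 in the last comparison of every line.

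Apart from the shared course, some members departed from the rest. To find them, the same test was run with the summed counts of all members as library size, so that a change is relative to the family. Between days 1 and 4, 1 member was called above and 6 below the family in TX1072 (Rps2 above; Rpl3l, Rpl7l1, Rpl10l, Rpl39l, Rps4l and Rps21 below), 0 and 6 in TXdXicB6, and 2 and 5 in TXdXicCast. The same 4 genes departed in all 3 lines: Rpl10l, Rpl39l, Rpl7l1 and Rps4l, each of them a copy by name. They were also the 4 members called lower in all 3 lines over these days in the test over all genes, where 22.4% of the 18382 genes tested in both tables were lower in all 3 lines and 22.9% higher.

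Rpl10l fell most. It is an intronless copy of Rpl10 known from the testis (GRCm38 chr12:66283379-66284401, minus strand), while Rpl10 encodes a protein of the large subunit that joins late in assembly. In TX1072 it read 71.3, 66.3 and 60.3 CPM in the day 0 libraries, 75.9, 72.6 and 68.2 on day 1, 58.3, 61.9 and 57.6 on day 2, 21.5, 30.9 and 26.5 on day 3 and 6.22, 6.96 and 9.87 on day 4. Days 0 to 2 stayed near each other and days 3 and 4 lay below all of them. The log2 fold change from day 1 to day 4 was -3.23 (SE 0.16, adjusted p = 1.386e-11, edgeR).

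The deletion lines followed the same course for Rpl10l. TXdXicB6 went from 60.0, 60.3 and 65.5 CPM at day 1 to 10.7, 7.92 and 6.28 at day 4 (log2 fold change -2.89, SE 0.19), and TXdXicCast from 63.6, 67.4 and 71.6 to 10.7, 10.4 and 5.57 (-2.92, SE 0.19). Per exon length, Rpl10l made up 7.93% ± 0.229 (SD, n = 3) of the sum of Rpl10 and Rpl10l on day 0 in TX1072, 10.0% ± 0.418 a day later and 1.33% ± 0.476 on day 4. In the day 4 libraries it was 1.06% ± 0.288 in TXdXicB6 and 1.02% ± 0.329 in TXdXicCast. Exon length is that of all annotated exons merged (2053 bases for Rpl10 and 1023 for Rpl10l). Which transcripts were in use was not tested, so the height of such a part is uncertain.

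Rpl39l, a copy of the X-linked Rpl39 on chromosome 16 (chr16:10170226-10174911, plus strand) that is also known from the testis, ran almost in parallel in TX1072. Its levels in TX1072 were 38.6, 43.2 and 52.4 CPM in the day 0 libraries, 47.2, 51.7 and 47.9 on day 1, 37.2, 49.1 and 37.3 on day 2, 15.5, 16.3 and 19.8 on day 3 and 3.89, 7.94 and 6.84 on day 4. As for Rpl10l, every library of days 3 and 4 lay below every library of days 0 to 2. The log2 fold change from day 1 to day 4 was -2.97 in TX1072 (SE 0.20), -2.72 in TXdXicB6 (SE 0.22) and -2.48 in TXdXicCast (SE 0.21), all called. Its part of the sum with Rpl39, per exon length, went from 14.7% ± 5.22 at day 1 to 2.6% ± 1.33 at day 4 in TX1072. The height of this part, too, depends on the merged exon lengths, 1434 bases for Rpl39 and 831 for Rpl39l.

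Rpl7l1 and Rps4l fell less. Rpl7l1 (chr17:46773907-46782672, minus strand), a relative of Rpl7 linked to ribosome assembly, went from 345, 368 and 360 CPM at day 1 to 246, 248 and 257 at day 4 in TX1072, without overlap. Its log2 fold changes were -0.51 (SE 0.10) in TX1072, -0.61 (SE 0.09) in TXdXicB6 and -0.77 (SE 0.09) in TXdXicCast. Rps4l (chr6:148354656-148355598, plus strand), annotated as a transcribed processed pseudogene, went from 346, 503 and 320 CPM to 248, 282 and 266. Here too the days did not overlap, and the log2 fold changes were -0.56 (SE 0.15), -0.54 (SE 0.16) and -0.79 (SE 0.16). Without replicate 2, Rps4l in TXdXicB6 missed the threshold (-0.52, adjusted p = 0.0703). Since Rps4l is a processed copy, reads it shares with the other Rps4 genes may be lost or split, and its level is uncertain.

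Of the other copies, Rpl3l, known as the striated-muscle form of Rpl3, was near the limit of detection, with 1.4, 1.06 and 1.09 CPM at day 1 and 0.273, 0.731 and 0.480 CPM at day 4 in TX1072. Its log2 fold change over these days was -1.24 (SE 0.34) in TX1072 and -1.24 (SE 0.37) in TXdXicCast, both called, and -0.50 in TXdXicB6, not called (adjusted p = 0.2421). Without replicate 1 the TX1072 call was lost (-0.83, adjusted p = 0.0891), and without replicate 2 or 3 the TXdXicCast call was lost (adjusted p = 0.107 and 0.0571).

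Rpl22l1, a copy of Rpl22 that can take its place, was lower at days 1, 2 and 4 than at day 0 in TX1072. It read 165, 110 and 244 CPM in the day 0 libraries, 105, 56.3 and 99.5 on day 1, 93.2, 71.6 and 75.4 on day 2, 136, 105 and 124 on day 3 and 93.8, 67.5 and 96.2 on day 4. Every library of days 1, 2 and 4 lay below every library of day 0, while day 3 overlapped with day 0 and lay above days 1, 2 and 4 (log2 fold change to day 0 of -0.51, adjusted p = 0.08699). Its log2 fold change to day 0 was -1.01 for day 4 (SE 0.25, adjusted p = 0.001762), and it was -0.02 between days 1 and 4. In the deletion lines it was not called on any day and the replicates lay far apart, with 56.3, 29.1 and 123 CPM in TXdXicB6 and 43.0, 99.4 and 90.5 CPM in TXdXicCast on day 4. The scatter followed the replicate number in TXdXicB6, where each replicate of days 1 to 4 lay below the same replicate of day 0 (68.2, 55.9 and 128 CPM). At day 1 in TXdXicCast, replicate 1 was higher than at day 0 (51.2 against 46.9 CPM) and replicates 2 and 3 were lower.

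Rps27l is the copy of Rps27 known as a p53 target. In TX1072 it read 230, 262 and 266 CPM in the day 0 libraries, 191, 181 and 197 on day 1 and 222, 208 and 247 on day 4, and its log2 fold change from day 0 to day 4 was -0.16 (adjusted p = 0.2072). From day 1 to day 4 it was 0.25 (adjusted p = 0.05573), and 0.25 with an adjusted p of 0.0463 with the replicate number as a block. With library size alone it was called higher (0.31, adjusted p = 0.0217). Its part of the sum with Rps27, per merged exon length (816 bases against 1043 for Rps27), was 37.7% ± 3.59 at day 0 and 39.4% ± 3.5 at day 4. In TXdXicCast it was called higher at day 4 against day 0 (log2 fold change 0.95), but not against day 1 (0.19, adjusted p = 0.4126). Rpl6l, Rps3a2, Rps3a3 and Rpl32l were not called in TX1072 at day 4 against day 0 or day 1. Without the 2 libraries with over 7% mitochondrial counts, Rps3a3 was called lower at day 4 against day 0 (-0.60, adjusted p = 0.0387). Rpl32l did not pass the filter on low counts in the deletion lines.

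**Figure D3:**
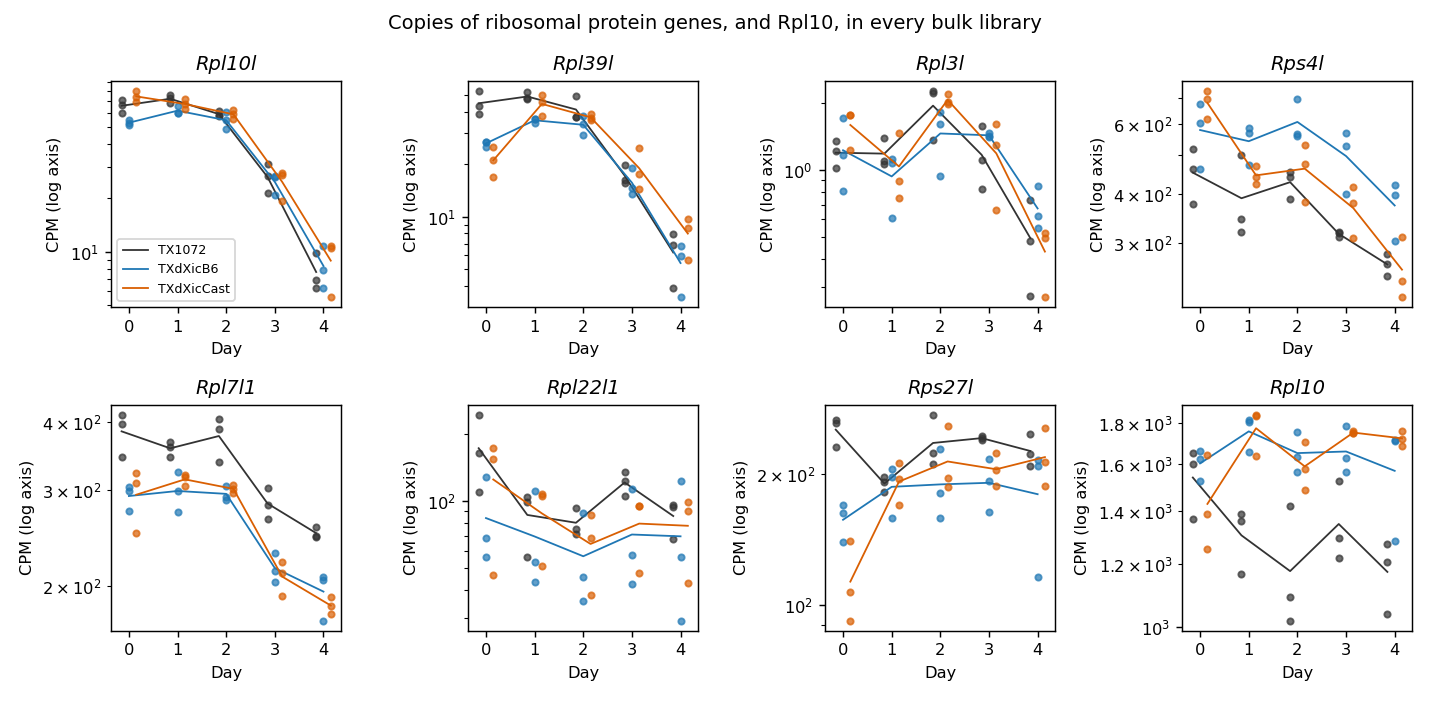
Level (CPM, log axis) of 7 copies by name and of Rpl10 in every bulk library by day of differentiation, with lines through the group means; black is TX1072, blue TXdXicB6 and orange TXdXicCast. TX1072 was normalised apart from the deletion lines, so the height of its curve is not comparable with theirs. Rpl10l and Rpl39l fall at days 3 and 4 in all 3 lines, while Rps27l does not.

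The standard members with the largest falls in TX1072 at day 4 against day 0 were both X-linked. Rpl39, a small protein of the exit tunnel, read 837, 572 and 1140 CPM at day 0 and 509, 332 and 456 at day 4 (log2 fold change -0.97, SE 0.25, adjusted p = 0.002372). Without replicate 3 it missed the threshold (-0.75, adjusted p = 0.0602). Rpl36a read 842, 824 and 1407 CPM at day 0 and 516, 569 and 516 at day 4 (-0.94, SE 0.17, adjusted p = 8.794e-05). In both genes the groups did not overlap and day 0 replicate 3, a library with high mitochondrial counts, was the highest. Without replicate 3 the fall of Rpl36a was smaller and still called (-0.63, adjusted p = 0.00129), as it was without the 2 libraries over 7% mitochondrial counts (-0.66, adjusted p = 0.000247). Rpl36a was lower at day 4 in the deletion lines as well (-0.67 in TXdXicB6 and -1.01 in TXdXicCast, both called), though in TXdXicB6 it missed the threshold without replicate 1 (-0.56, adjusted p = 0.102) or 2 (-0.51, adjusted p = 0.0614). Rpl39 was not called in TXdXicB6 (-0.27, adjusted p = 0.5973; -0.43 with the replicate number as a block, adjusted p = 0.0107) and was higher in TXdXicCast (0.93, adjusted p = 0.04856), against degraded day 0 libraries.

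In all, 8 members were called lower at day 4 against day 0 in every line: Rpl3l, Rpl7l1, Rpl10l, Rpl36a, Rpl39l, Rps4l, Rps6 and Rps14. Of the 18382 genes tested in both tables, 20.7% were lower in all 3 lines and 22.9% higher. Leaving out replicate 1, the calls of Rpl3l and Rps6 were lost in TX1072 (adjusted p = 0.0571 and 0.0598) and those of Rpl3l, Rpl36a, Rps6 and Rps14 in TXdXicB6 (adjusted p between 0.102 and 0.326). Without replicate 2 they were lost for Rps6 in TX1072 (adjusted p = 0.0647) and for these 4 genes in TXdXicB6 (adjusted p between 0.0614 and 0.161), and without replicate 3 for Rpl3l in TX1072 (adjusted p = 0.0594). With library size alone they were lost for Rps6 in TX1072 (adjusted p = 0.123) and for Rpl3l, Rps6 and Rps14 in TXdXicB6 (adjusted p between 0.074 and 0.107). Leaving out only TXdXicB6 day 0 replicate 1, those of Rpl3l, Rps6 and Rps14 were lost in that line (adjusted p between 0.143 and 0.239). Rps6, the small-subunit protein phosphorylated downstream of mTOR, had log2 fold changes of -0.42 in TX1072, -0.36 in TXdXicB6 and -1.09 in TXdXicCast. Rps14, a small-subunit protein of the platform, had -0.79, -0.40 and -1.38. The stalk proteins and Rpsa did not pass this test in TX1072. Rplp0, the base of the ribosomal stalk, changed by -0.03 (adjusted p = 0.8616), Rplp1 and Rplp2, the mobile stalk proteins, by -0.28 and -0.18 (adjusted p = 0.1647 and 0.4598), and Rpsa, also known as the laminin receptor, by -0.22 (adjusted p = 0.1916). The interquartile range of the standard members was -0.49 to -0.24, so that Rplp1 lay inside it and the other 3 above it. From day 1 to day 4, Rplp0 changed by 0.24 in TX1072 (adjusted p = 0.06791) and in TXdXicB6 (adjusted p = 0.07988), and with the replicate number as a block it was called higher in both (adjusted p = 0.0391 and 0.0095). With library size alone it was called higher in TX1072, TXdXicB6 and TXdXicCast (adjusted p = 0.0387, 0.0064 and 0.0412). It was also called without replicate 2 in TX1072 (adjusted p = 0.0438) and with DESeq2 or its size factors in TXdXicB6 (adjusted p = 0.0472 and 0.0498).

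The namesakes of the copies behaved as standard members between days 1 and 4 in TX1072. Rpl10 changed by -0.15, Rpl39 by -0.29, Rpl3 by -0.06, Rpl7 by 0.08, Rpl22 by -0.02 and Rps27 by 0.17 on the log2 scale. None of these passed the test (adjusted p between 0.3161 for Rps27 and 0.9234 for Rpl22), but with no filter on low counts Rpl39 did (-0.33, adjusted p = 0.0389). In TXdXicB6, Rpl39 changed by -0.36 (adjusted p = 0.4837), and by -0.45 with the replicate number as a block (adjusted p = 0.00769).

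The deletion lines were then compared with each other. On day 4, 1 of 86 members was called higher in TXdXicB6 than in TXdXicCast and 1 lower, where 5.86% of all genes were called (1.85% higher and 4.01% lower). Rps23, a protein of the decoding site, read 684, 484 and 785 CPM in TXdXicB6 and 1008, 1024 and 1012 CPM in TXdXicCast, without overlap (log2 fold change -0.64, SE 0.16, adjusted p = 0.01203). The same order held at day 0, where Rps23 read 767, 673 and 741 against 1002, 1413 and 1434 CPM, and at day 1 (737, 607 and 816 against 1000, 1223 and 1226 CPM). Rps4l read 420, 397 and 304 against 311, 241 and 220 CPM, with an overlap (0.54, adjusted p = 0.0465), and missed the threshold when any replicate was left out (adjusted p between 0.0919 and 0.389). Without replicate 1 or 2, no member was called, and without replicate 3 there was 1. With no filter on low counts, Rpl39 (-0.69, adjusted p = 3.8e-06) and Rpl39l (-0.56, adjusted p = 0.0143) were called as well. For the change from day 1 to day 4 between the lines, no member was called (0 of 86 by edgeR, 0 at an unadjusted p of at most 0.05 and 0 with DESeq2). Of all genes, edgeR called 0.749% (0.0955% higher and 0.654% lower), so that 0 of 86 members was near that share. The estimates were -0.39 (SE 0.58) for Rpl39 and 0.74 (SE 0.52) for Rpl3l, and differences of this size could be missed.

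Of the X-linked members only Rpl10 could be followed by allele, with 29560 allele-specific of 2164831 counts over the 45 libraries. Rpl36a had 0 among 752975 counts and Rpl39 had 1 among 709244. In TXdXicB6, where Xist can come only from the Cast X chromosome, the Cast allele gave 31.8, 30.3 and 33.0% of allele-specific Rpl10 counts in the day 0 libraries, 17.6, 23.8 and 23.1% on day 1 and 16.8, 17.6 and 16.7% on day 4. All libraries of days 1 to 4 (12.4 to 23.8%) lay below all libraries of day 0, although day 0 replicate 1 held only 63 such counts (95% exact binomial interval 20.6 to 44.7%). The mean went from 31.7% ± 1.36 (SD, n = 3) at day 0 to 17.1% ± 0.451 at day 4 (exact permutation p = 0.1, the smallest possible).

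The total level of Rpl10 in this line was 1664, 1523 and 1625 CPM at day 0 and 1718, 1281 and 1711 CPM at day 4, with an overlap (log2 fold change -0.03, adjusted p = 0.8144). In TXdXicCast, where only the B6 X chromosome can be inactivated, the B6 allele gave 69.4% ± 2.52 at day 0 and 69.4% ± 5.12 at day 4 (exact permutation p = 1). On day 1 it gave 78.0, 78.8 and 73.2%, above the 71.4, 70.1 and 66.5% of day 0 without overlap (76.7% ± 3.04, exact permutation p = 0.1, the smallest possible). The Cast share was thus lower at day 1 than at day 0 in both deletion lines, from 31.7 to 21.5% in TXdXicB6 and from 30.7 to 23.3% in TXdXicCast, and on day 4 it was 30.6% in TXdXicCast. In TX1072, where either X can be inactivated, the B6 share started at 65.5% ± 0.524 on day 0, was 68.7% ± 3.65 a day later and ended at 65.4% ± 3.92 on day 4 (exact permutation p = 0.3 and 0.9 against day 0). In between it was 70.2% ± 3.32 on day 2 and 68.6% ± 1.22 on day 3, where all libraries (67.2 to 73.8%) lay above those of day 0 (64.9 to 65.8%, exact permutation p = 0.1 in each case, the smallest possible). The B6 allele thus gave more than the Cast allele in every library of all 3 lines. That the change differed between the lines was not tested. Reads from other copies of Rpl10 in the genome could add to either allele, and their part was not tested.

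**Figure D4:**
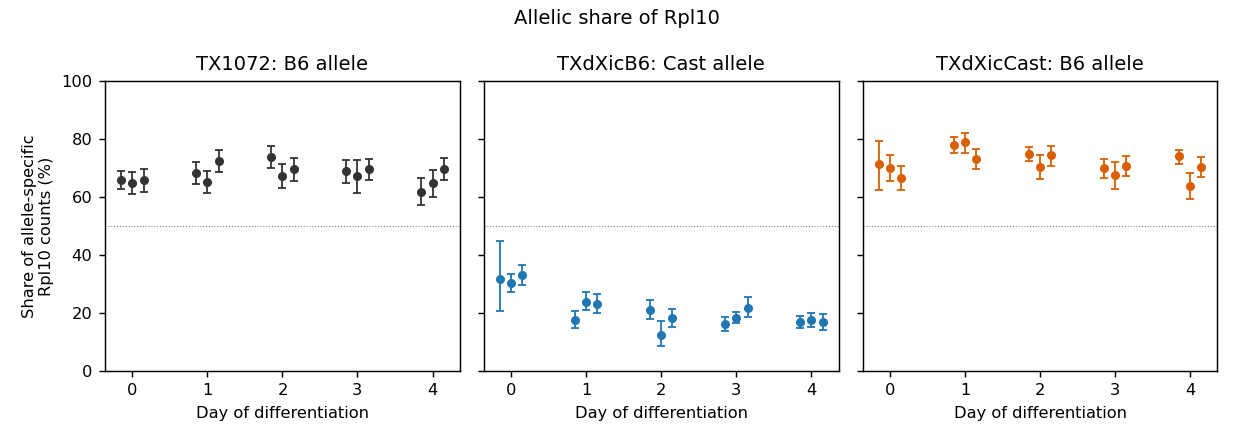
Share of allele-specific Rpl10 counts (%) from the allele named above each panel, by day of differentiation, for every bulk library with its exact 95% binomial interval. The dotted line is an equal share of both alleles. The Cast allele in TXdXicB6 goes from 31.7% at day 0 to 17.1% at day 4, while the B6 allele is at 69.4% on both days in TXdXicCast.

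In single cells Rpl10l and Rpl39l took a course like that in the TX1072 bulk libraries, of which replicate 1 shared the culture of the single cells. Given as CPM of all UMIs of a day, Rpl10l had 86.9, 83.5, 93.4, 35.8 and 8.85 on days 0 to 4, and Rpl39l 118, 148, 129, 42.6 and 13.4. Until day 2 Rpl10l stayed between 83.5 and 93.4, while Rpl39l was highest on day 1. Both were lower at days 3 and 4 than on any day before. Their log2 ratios of day 4 to day 0 were -3.30 and -3.14. At day 4 the 272 cells held 402 UMIs of Rpl10l and 609 of Rpl39l, of which 1 cell held 31 and 1 cell held 101. Rps4l went from 1160 to 679 CPM (log2 ratio -0.77), Rpl7l1 from 411 to 322 (-0.35) and Rpl3l from 3.27 to 0.572 (-2.51), the latter from 128 and 26 UMIs, 17 of these 26 in 1 cell.

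The other members spread on both sides. Over all 86, the median log2 ratio of day 4 to day 0 was -0.12, with 57 members lower and 29 higher, beside a median of 0.08 over the 15038 genes with at least 100 UMIs. From day 1 to day 4 it was 0.30. Rps26, a protein of the mRNA exit, had the highest ratio among members above 2 CPM (1141 to 1758 CPM, log2 ratio 0.62), followed by Rps19 and Rpl5, which are both known from Diamond-Blackfan anemia (0.54 each), and Rplp0 (0.43). These members and those that follow were picked after their values were seen. In the bulk libraries Rps26 and Rps19 were among the 5 standard members with the least negative change at day 4 (-0.11 and -0.08, not called). Rpl5 was lower in bulk, with 670, 764 and 717 CPM at day 0 and 570, 659 and 559 CPM at day 4. Rpl39 differed between the assays, with a log2 ratio of 0.12 in single cells and -0.97 in bulk.

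The 2 assays did not give the members alike. On day 0 Rpl10 had 62.6 CPM in single cells and 1540 CPM ± 154 (SD, n = 3) in bulk TX1072, whereas Rps4l had 1160 CPM in single cells. Many members have near-identical processed pseudogenes, and the part of reads that align to several places in these levels was not tested.

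**Figure D5:**
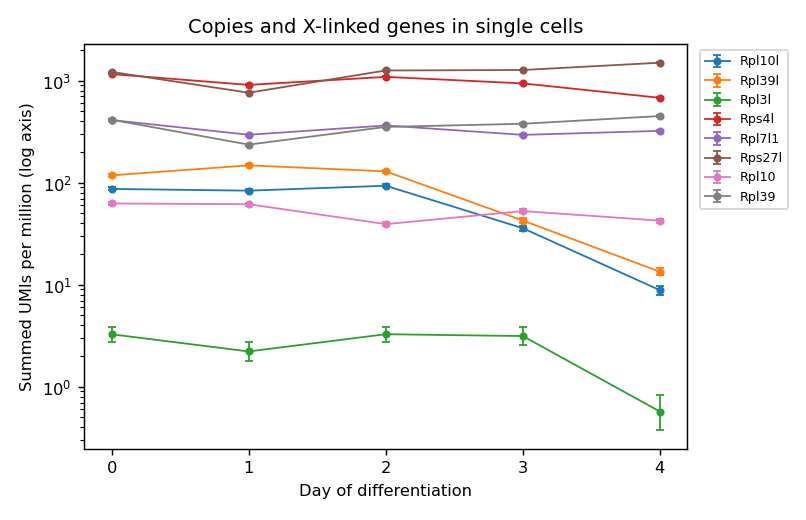
CPM of UMIs summed over the retained cells of each day (log axis), for 6 copies and for Rpl10 and Rpl39, by day of differentiation. Bars are exact 95% Poisson intervals, which cover counting error only, and there was 1 culture per day. Rpl10l and Rpl39l fall from 86.9 and 118 at day 0 to 8.85 and 13.4 at day 4, while Rps27l is at 1218 and 1499.

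Other genes of ribosomes and translation are given for the same libraries. Nuclear genes for mitochondrial ribosomal proteins (77 tested) had 12 higher, 7 lower and a median log2 fold change of 0.04 at day 1 in TX1072, where 23.5% of all genes were higher and 23.4% lower. At day 4 against day 1, 2 were higher and 54 lower with a median of -0.43 (30.7% of all genes higher and 28.1% lower). The same comparison gave 1 higher and 58 lower in TXdXicB6 and 1 and 62 in TXdXicCast. At day 4 against day 0 in TX1072, where 46 were lower and 1 higher (median -0.37), Mrps5 and Mrpl17 had the largest falls (-1.10 each) and Mrpl23 was the 1 rise (0.46).

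Of ribosome biogenesis genes (40 tested), 14 were higher and 1 lower at day 1 in TX1072 (median 0.22), against 23.5% of all genes higher and 23.4% lower, and 25 did not pass. From day 1 to day 4 1 was higher and 27 were lower (median -0.42), against 30.7% and 28.1% of all genes. In the deletion lines 1 was higher and 21 lower (TXdXicB6) and 0 and 33 (TXdXicCast) over these days. At day 4 against day 0 in TX1072, 3 were higher and 12 lower (median -0.19), against 30.2% and 29.4% of all genes. Ubtf, a factor for transcription of ribosomal RNA genes, was lower by log2 -0.95 and Dkc1, the pseudouridine synthase, by -0.74, while Rrp1 (0.58) and Utp20 (0.48), which act in pre-rRNA processing, were higher. Ubtf had 364 CPM ± 87.8 (SD, n = 3) on day 0, 378 ± 24.2 on day 1 and 189 ± 15.5 on day 4, so that its means on days 0 and 1 were within 1 SD and day 4 was lower.

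Other transcripts with a terminal pyrimidine tract (12 tested) were compared in the same way. In TX1072, 7 were lower and none higher at day 1 (median -0.51), where 23.4% of all genes were lower. The 7 were Naca, Gas5 and the small nucleolar RNA hosts Snhg1, Snhg5, Snhg6, Snhg8 and Snhg12. Tpt1, Btf3, Nap1l4, Nap1l1 and Hnrnpa1 were not called (-0.23, -0.22, -0.06, -0.03 and 0.12). At day 4, 8 were lower and 1 higher (-0.56), where 29.4% of all genes were lower and 30.2% higher, and between days 1 and 4 1 was higher and none lower (-0.05). Snhg5, a host of small nucleolar RNAs, read 250, 224 and 231 CPM in the day 0 libraries, 168, 105 and 128 on day 1 and 147, 113 and 119 on day 4 (log2 fold change to day 0 of -0.90 on day 4). Snhg12, another such host, had -0.88, and Tpt1 was the 1 member of this list that was higher (0.46). In single cells Snhg5 was at 410, 395 and 287 CPM on days 0, 1 and 4, a smaller step to day 1 than in bulk, with no test.

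Translation factors (35 tested) had 12 lower and none higher at day 4 against day 0 in TX1072 (median -0.19), where 29.4% of all genes were lower and 30.2% higher, led by Eif4a2, an mRNA helicase (-0.99), and Eif3k, a subunit of eIF3 (-0.71). Annotated ribosomal protein pseudogenes (97 tested) had 1 higher and 17 lower, with a median of -0.31, near that of their parent genes. Reads of parent and pseudogene can be exchanged, and their part in the change was not tested.

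Among 20 mTOR and Myc regulators, 5 were higher and 5 lower at day 4 against day 0 in TX1072, where 59.6% of all genes were called (30.2% higher and 29.4% lower). Myc, a factor that drives ribosome genes, read 4.25, 12.3 and 8.59 CPM in the day 0 libraries, 55.3, 90.4 and 71.2 on day 1 and 24.6, 32.7 and 31.3 on day 4 (log2 fold change on day 4 of 1.83). All 3 libraries of day 1 lay above all libraries of days 0 and 4. Mxd4, an antagonist of Myc, was higher (1.84), and Mycn (-1.02) and Eif4ebp1, the mTOR-controlled repressor of translation (-0.97), were lower. Of 12 p53 targets 8 were higher and 1 lower in this comparison, with Perp (4.68) and Plk2 (3.52) at the top and Cdkn1a the 1 that was lower (-0.45).

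The lines went through the labelled differentiation. All 8 naive pluripotency markers were lower at day 4 against day 0 in every line, in TX1072 with Klf4 (-5.66) and Prdm14 (-5.26) in front, and all 5 formative markers were higher, with Fgf5 (10.0) and Pou3f1 (2.09) in front in TX1072. The shared pluripotency genes Sox2 (-2.65) and Pou5f1 (-1.01) were lower. The course in between did not run in 1 direction. In TX1072 the 5 formative markers summed to a median of 262, 3090 and 875 CPM on days 0, 2 and 4. For the 8 naive markers the median sum was 5070, 283 and 460 CPM on the same days. Markers of other cells were rare. The 4 endoderm markers, all higher at day 4 in TX1072 with Foxa2 (6.61) and Gata6 (3.15) in front, summed to 1.00, 1.17 and 1.89 CPM at day 0 and to a lowest, median and highest of 8.58, 9.09 and 35.4 CPM at day 4, with Foxa2 the most abundant (28.9, 5.43 and 4.89 CPM in replicates 1 to 3). The 4 fibroblast markers summed to 20.4 to 29 CPM at day 0 and 11.6 to 13 CPM at day 4, with Postn higher (from a mean of 0.0126 to 0.495 CPM, the former from 1 of 3 libraries) and Col1a2 (-2.41) and Col1a1 (-0.97) lower. Postn was at 0 in all TXdXicB6 libraries of day 0. The part of these cells in the levels of the ribosomal protein genes was not tested.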

How the data were processed

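Read pairs of the bulk libraries had been aligned by the authors with STAR (version 2.5.2b) to mm10, in which positions that differ between the parental strains were masked, and the deposited counts are raw numbers of unique alignments to each gene by featureCounts, without and with assignment to an allele. The single-cell table holds deposited counts of different UMIs for each gene and site of the chip. The 1472 cells that the study had retained were summed by day, and doublets were not called again. UMI counts were not corrected for collisions, except in an alternative.

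The genes, gene lists and comparisons were chosen with earlier results of these data known. The rule matched 88 names, of which Rps12l1 was under 100 counts. Coordinates of genes are from GENCODE vM21 (GRCm38). TX1072 and the deletion lines were fitted as 2 tables with edgeR 4.0.16 in R 4.3.3 (TMM, filterByExpr, glmQLFit and glmQLFTest, all libraries of a table in 1 fit, two-sided), with Benjamini-Hochberg adjustment over all genes tested and a threshold of 0.05. SE is the log2 fold change divided by the square root of F. On simulated data for day 4 against day 0, the fit recovered 80% of genes changed by log2 1 and 98% of those changed by log2 2 in TX1072 (18871 genes), with 6.32% of calls false. Changes below log2 1, the size of those of all standard members in TX1072, were not simulated. CPM are computed here from the deposited counts with TMM factors. Shares and allelic shares (at least 50 allele-specific counts) were compared by exact permutation tests, which did not pair libraries by replicate number.

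Each replicate number was differentiated on a day of its own, according to the study. As a check, same-numbered samples of different days correlated in their deviations from the group means with a median r of 0.126 in TX1072 and 0.185 in the deletion lines, against -0.0678 and -0.109 for other numbers. The fit with the number as a block is an alternative.

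Members named in the text are the copies and their namesakes, the X-linked, stalk and Rpsa genes, the largest changes in TX1072 at day 4 against day 0, the largest departures per line, and of each other list the 2 largest rises and falls, unless the text says otherwise. Not every gene that this rule gives is reported here. The alternatives were DESeq2 1.42.0, its size factors in edgeR, library size alone, no filter, the block, and leaving out each replicate or a library that stood apart.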

Additional observations from a re-analysis of the deposited data

Results flagged for a closer look

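The share of UMIs on the ribosomal protein genes in capture column 2 of day 0, 5.56%, stood apart as the highest of the 10 columns of its day. Among 5 days with 10 columns each it was the 1 such column, and chance alone flags about 1 in 20 groups. Column 2 was also the highest of the 10 on days 2, 3 and 4 (4.97, 5.33 and 5.20%), and on day 1 it was at 3.93%, where the highest column was also at 3.93%.

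At day 4 against day 0, 3 of the named genes were called in opposite directions in TX1072 and TXdXicCast. Rpl10 had a log2 fold change of -0.39 in TX1072 and 0.27 in TXdXicCast, Rpl32, a large-subunit protein, of -0.38 and 0.33, and Rpl39 of -0.97 and 0.93. In each case the 3 libraries of day 4 all lay below those of day 0 in TX1072 and all above those of day 0 in TXdXicCast. In TX1072 the calls of Rpl10 and Rpl32 were lost with library size alone (-0.25 and -0.23, adjusted p = 0.14 and 0.168) and without replicate 1 (adjusted p = 0.0905 and 0.115), that of Rpl32 also without replicate 2 (adjusted p = 0.0521), and that of Rpl39 without replicate 3 (adjusted p = 0.0602). In TXdXicCast all 3 calls were lost without replicate 1 (adjusted p between 0.144 and 0.241) and without replicate 3 (adjusted p between 0.0732 and 0.114), and that of Rpl10 with no filter on low counts (adjusted p = 0.0773). That of Rpl39 was also lost without TXdXicB6 day 0 replicate 1, which enters the same fit (adjusted p = 0.0517). The difference between the lines was not tested, since their tables were fitted separately. The day 0 libraries of TXdXicCast came from degraded RNA. In the comparison of days 4 and 1, which leaves them out, none of the 3 genes was called in either line.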

How the results depend on the processing

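With library size alone, members called were 6 (TX1072 day 3 against day 0), 26 (TX1072 day 4 against day 0), and 13 at day 4 against day 1 in each of TXdXicB6 and TXdXicCast. With no filter on low counts they were 7 (TXdXicB6 day 1) and 4 (the deletion lines at day 4). With the replicate block they were 10 (TX1072 day 4 against day 1) and, in TXdXicB6, 19, 18, 14 and 22 at days 1 to 4 against day 0 and 8 at day 4 against day 1; it moved no other count by over 1.5 times. Among named members it also added Rpl6 in TX1072 at day 4 against day 0 (-0.32, adjusted p = 0.0324). Chosen after seeing the data, leaving out the 2 TX1072 libraries over 7% mitochondrial counts gave 25, 8 and 5 at days 1 to 3, and leaving out TXdXicB6 day 0 replicate 1 gave 0 and 1 at days 1 and 2. Leaving out each replicate gave 8 to 58 (TX1072 day 1), 1 to 31 (day 2), 5 to 13 (day 3), 31 to 48 (day 4), 0 to 11, 1 to 10 and 4 to 19 (TXdXicB6 days 1, 2 and 4) and 0 to 1 (lines at day 4). The cause of these shifts was not tested.

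The median log2 fold change in TXdXicCast against day 0 became -0.19, -0.07 and -0.13 at days 2 to 4 with library size alone. Leaving out each replicate, the median ranged from -0.15 to 0.12 between the deletion lines at day 4. The share in TXdXicB6 at day 4 minus day 0 ranged from -0.361 to 0.657 percentage points, and the allelic share of Rpl10 at day 4 minus day 0 from -2.05 to 1.81 (TX1072) and from -1.82 to 3.19 (TXdXicCast). The single-cell shares were 4.80, 3.81, 4.70, 5.04 and 4.61% over all capture sites and 4.75, 3.77, 4.68, 5.00 and 4.57% as medians over cells. They were 5.20, 3.84, 4.99, 5.32 and 5.02% corrected for UMI collisions (chosen after seeing the data), and without each capture column ranged from 4.71 to 4.81, 3.76 to 3.79, 4.64 to 4.71, 4.93 to 5.00 and 4.51 to 4.61%. From day 1 to day 4, Rpl10l, Rpl39l, Rpl7l1 and Rps4l had a negative log2 fold change in every line under every alternative run, and 1 of these calls was lost (Rps4l in TXdXicB6 without replicate 2). Without the 10 members with the largest counts in the summed counts, 4 in place of 6 members were below the family in TXdXicB6. Depth limits Rpl3l, Rpl32l and the allelic counts of TXdXicB6 day 0 replicate 1, and the identity of near-identical copies cannot be resolved from uniquely aligned reads.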
